A study of Mus musculus with 2 samples.

Results

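The genes described here were taken by name for the nuclear subunits of the oxidative phosphorylation machinery: every gene whose symbol starts with Nduf, Uqcr, Cox, Sdh or Atp5. That rule found 107 of the 32285 genes in the count tables. Structural subunits made up 86 of them, with 39 assigned by symbol to complex I, 4 to complex II, 8 to complex III, 18 to complex IV and 17 to complex V. The other 21 were assembly factors, such as Ndufaf1, Sdhaf2 and Cox17, which help build a complex without staying in it. The rule used names and no measured value, so subunits with other names are left out. Ndufb1-ps, counted in complex I, is typed as a long non-coding RNA in the gene annotation.

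The data were 2 droplet single-cell RNA libraries of viable CD45+ cells, that is leukocytes, sorted from tumours of the mouse melanoma line B16-F10 at day 14 after injection. One library came from DGAT1 KO tumours, grown from B16-F10 cells without DGAT1, an enzyme that makes triglyceride, and the other from WT tumours of the same line. The study's question was what tumour DGAT1 does to the leukocytes in the tumour. The labels give 3 tumours per group and 1 library per group, no age, sex or strain of the host mice, and no sign that the leukocytes themselves carried the deletion. With 1 library per group no difference below could be tested, and intervals cover counting error only.

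Oxidative phosphorylation moves electrons from NADH (complex I) and succinate (complex II) through complex III to oxygen at complex IV, pumping protons that drive ATP synthesis by complex V. Complexes I, III, IV and V are mosaics: most subunits are nuclear genes, and 13 core subunits are made from mitochondrial DNA, while complex II is wholly nuclear. Proliferating T cells and tumour-associated macrophages are known for shifting between this route and glycolysis.

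The KO library held 202946827 UMIs (unique molecular identifiers, 1 per captured RNA molecule) and the WT library 235652476, and 10973 KO cells and 9078 WT cells were kept. The median kept cell had 10758 UMIs in the KO library and 14073.5 in the WT library, and 24 cell barcodes were shared. Cells were sorted into classes by gates on marker genes, which placed 74.7% of KO cells and 82.1% of WT cells. Of these classes, 13 had at least 50 cells in each library and were compared. Dgat1 itself read 18.5 CPM (UMIs of a gene per 1000000 UMIs of its class; here 117 UMIs) in the KO melanoma cells that came through the sort and 28.5 CPM (704 UMIs) in the WT ones. In CD8 T cells Dgat1 read 68.4 CPM in the KO library and 77.8 CPM in the WT library. These 3' tags need not lie in the edited stretch, so they do not check the edit.

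The promoters of 2 subunits whose ratio lay below 0 in all 13 classes are shown first, because they are set side by side with motifs known from this gene family. Sequences are RefSeq promoters on GRCm38.p6, from 250 bases before to 50 after a start, read 5′ to 3′ on the gene's strand, with any motif match in capitals.
Cox7a2l (chr17:83514284-83514583, minus strand): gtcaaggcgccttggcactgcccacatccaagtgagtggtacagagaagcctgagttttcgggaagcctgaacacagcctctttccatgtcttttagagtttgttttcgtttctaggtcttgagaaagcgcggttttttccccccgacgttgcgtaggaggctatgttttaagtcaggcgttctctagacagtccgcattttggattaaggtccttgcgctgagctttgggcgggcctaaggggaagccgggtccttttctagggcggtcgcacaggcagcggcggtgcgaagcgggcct
Atp5g2 (chr15:102670998-102671297, minus strand): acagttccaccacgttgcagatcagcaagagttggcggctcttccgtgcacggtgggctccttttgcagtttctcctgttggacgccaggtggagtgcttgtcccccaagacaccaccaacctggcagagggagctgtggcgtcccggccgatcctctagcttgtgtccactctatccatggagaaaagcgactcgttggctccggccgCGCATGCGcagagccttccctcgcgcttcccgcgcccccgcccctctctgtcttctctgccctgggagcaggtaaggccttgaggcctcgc
The motifs searched on both strands were GCATGCG for NRF1, CCGGAAG for ETS factors such as GABP, and AAGATGG for YY1, 3 factors long known to act at respiratory chain promoters. The Atp5g2 promoter held the NRF1 letters on both strands, overlapping in the palindrome CGCATGCG, and the Cox7a2l promoter shown held none of the 3. In the GENCODE gene models both genes start further upstream, at 83517330 for Cox7a2l and 102672352 for Atp5g2. Both windows thus lie inside those models, and promoters at those starts were not searched. A promoter was given for 70 of the 86 structural subunits, and 15.7% of these genes held the NRF1 letters, against 4.96% of 17492 protein-coding genes. The ETS letters stood in 24.3% of the subunit genes and 12.9% of protein-coding genes, and the YY1 letters in 15.7% and 7.18%. At least 1 of the 3 motifs occurred in 45.7% of the subunit genes and 22.6% of protein-coding genes. The median GC content was 58.3% and 56.3%. Over all 32851 promoters in the table the shares were 3.58% for NRF1, 8.86% for ETS and 6.34% for YY1. A match of letters is not a bound site, and Ndufa4, described further on, also held none.

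The summed level of the structural subunits differed more between classes than between the libraries of a class. Melanoma cells had the highest summed level, 42361 CPM in the KO library and 38280 CPM in the WT library. CD8 T cells followed with 22696 CPM in the KO library and 23308 CPM in the WT library. Neutrophils, which are known to carry few mitochondria, had the lowest, 6099 CPM in the KO library and 8548 CPM in the WT library. The order between these 3 classes was the same in both libraries. The middle of the order, where macrophages, cDC1, cDC2 and plasmacytoid cells lay between 17129 and 17990 CPM in the KO library and between 18911 and 20863 CPM in the WT library, was not. In bulk sums, fewer transcripts per cell and fewer cells of a metabolic state within a class cannot be told apart. Per cell, the median macrophage gave 1.55% of its UMIs to these genes in the KO library and 1.93% in the WT library. The interquartile ranges overlapped, from 1.10% to 2.00% in the KO library and from 1.41% to 2.42% in the WT library.

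**Figure D1:**
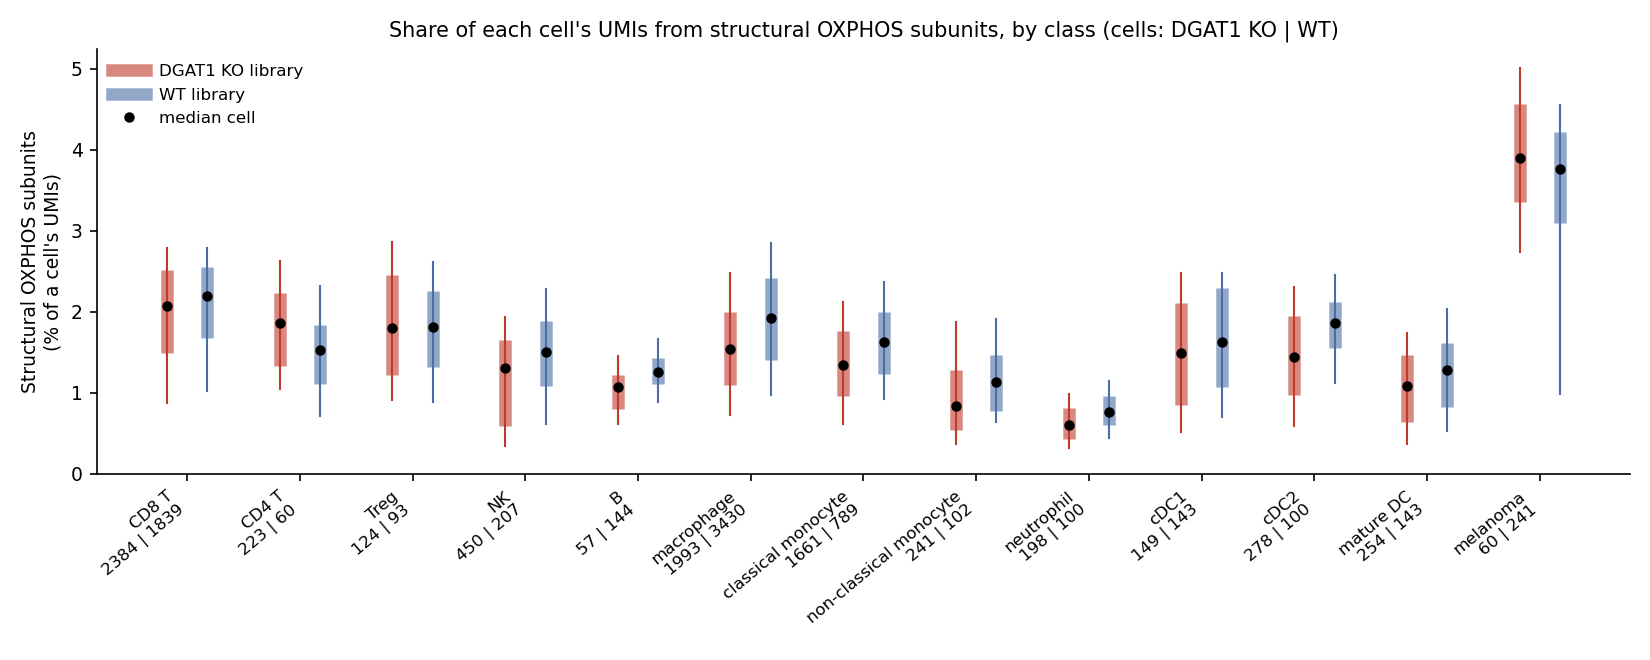
Share of each cell's UMIs that came from the 86 structural subunits (y axis, percent), by class (x axis, with cell numbers), DGAT1 KO in red and WT in blue; dots are the median cell, thick bars the interquartile range and thin bars the 10th to 90th percentile. Melanoma cells stand highest and neutrophils lowest in both libraries, and the KO median lies below the WT median in macrophages (1.55% in KO and 1.93% in WT) and classical monocytes (1.35% in KO and 1.62% in WT).

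Macrophages (1993 KO and 3430 WT cells, gated on C1q genes) had lower subunit levels in the KO library across every complex. The summed level was 17529 CPM in KO macrophages and 20863 CPM in WT macrophages, so KO stood at 0.840 of WT. Of 86 structural subunits, 83 had the minimum of 50 UMIs. Their median log2 ratio of KO over WT was -0.27, beside -0.02 over 13470 genes with the same minimum. A gene was counted as lower or higher when its log2 ratio reached 0.32 in that direction. Counted as lower in the KO library were 30 of the 83 subunits, against 17.7% of all genes. Only Ndufa4l2 was counted as higher, against 17.0% of all genes. Among genes with at least 500 UMIs, 30 of 81 subunits were lower, against 13.5% of all genes, and 0 higher, against 13.5%. Depth moved with the result, since the median macrophage had 14948 UMIs in the KO library and 18641 in the WT library. Among macrophages with 5000 to 20000 UMIs the median was -0.14, and 4 of 81 subunits were counted as lower, against 16% of all genes in those cells. The share of cycling macrophages (with a UMI of Mki67 or Top2a) was 37.0% in the KO library and 48.8% in the WT library. Without cycling cells 12 of 83 subunits were counted as lower, against 14.1% of all genes. In cycling cells alone 20 of 83 were lower, against 15% of all genes. At the 50 UMI minimum, the share of subunits counted as lower was thus no longer above that of all genes in the depth window. It was close to that of all genes without cycling cells, and stayed above it in cycling cells alone. Shares at the 500 UMI minimum were not taken in those cells. The part of depth and cycling in the result was not tested.

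By complex, macrophage levels in the KO library were 0.833 of WT for complex I, 0.806 for complex II, 0.853 for complex III, 0.843 for complex IV and 0.843 for complex V. The complexes thus differed little among themselves, and the spread lay between single subunits. In complex I, Ndufa4, which bears a complex I name but is now placed with cytochrome c oxidase, had 195 CPM in the KO library and 310 CPM in the WT library, with a log2 ratio of -0.67 (95% interval -0.71 to -0.63). Ndufb8, a subunit of the membrane arm, had 189.8 CPM in the KO library and 259 CPM in the WT library. Among the complex I subunits with at least 500 UMIs, Ndufa6 sat at the other end, with 143 CPM in the KO library and 137 CPM in the WT library. These subunits thus ran from well below the WT level to slightly above it. The scarce Ndufa4l2, with 113 UMIs in the KO library and 116 in the WT library, lay further above, at a log2 ratio of 1.03.

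In complex II of macrophages, the iron-sulphur subunit Sdhb had 126 CPM in the KO library and 169.7 CPM in the WT library, and the flavoprotein Sdha had 84.5 CPM in KO and 95.2 CPM in WT cells. All 4 subunits were thus lower in the KO library. In complex III the Rieske protein Uqcrfs1 had 76.4 CPM in the KO library and 96.2 CPM in the WT library, while Uqcrh, the hinge protein, had 289 CPM in KO and 302 CPM in WT cells. In complex IV, Cox5a had 329.6 CPM in the KO library and 458 CPM in the WT library, a log2 ratio of -0.48 (95% interval -0.51 to -0.44). Cox5a binds on the matrix side of the enzyme. In complex V, Atp5o, the stalk protein that confers oligomycin sensitivity, had 221 CPM in the KO library and 311 CPM in the WT library. The small subunits Atp5e, with 703 CPM in the KO library and 747 CPM in the WT library, and Atp5k, with 254 CPM in KO and 269 CPM in WT cells, differed least.

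Classical monocytes (1661 KO and 789 WT cells) showed the same direction. Their summed level was 15028 CPM in the KO library and 17404 CPM in the WT library. The median log2 ratio of 81 subunits was -0.23, beside 0.07 over 10954 genes. Counted as lower were 16 subunits, against 13.1% of all genes, and Ndufs1 alone as higher, against 20.7% of all genes. Sdhd, a membrane anchor of complex II, had 46.7 CPM in the KO library and 67.4 CPM in the WT library. Ndufb9 had 123 CPM in the KO library and 171 CPM in the WT library, and Ndufa7 had 175 CPM in KO and 242 CPM in WT cells. These are accessory subunits of complex I. Atp5d, the delta subunit of the ATP synthase rotor, had 156 CPM in the KO library and 210.2 CPM in the WT library. Cells with under 5% of their UMIs from ribosomal protein genes made up 25.4% of KO monocytes and 13.4% of WT monocytes. Without them the median was -0.15, and 10 of 81 subunits were counted as lower, against 12.8% of all genes, so the share was then close to that of all genes. Without cycling cells 18 of 81 were lower, against 12.2%, and in cycling cells alone 18 of 78, against 15.3%. In monocytes with 5000 to 20000 UMIs 12 of 81 were lower, against 11.5%. With at most 2% of UMIs from Malat1, 11 of 81 were lower, against 11.9%.

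CD8 T cells (2384 KO and 1839 WT cells), the largest lymphoid class, differed little in their median. The median log2 ratio of 81 subunits was -0.04, beside 0.04 over 13288 genes. None was counted as lower, against 13.6% of all genes. Cox6a2 and Cox7a1, both scarce muscle-type isoforms, were counted as higher, against 13.1% of all genes. Glycolysis went further: 13 of 15 glycolytic genes were counted as lower in KO CD8 T cells, with a median log2 ratio of -0.50, while the median of 13 citric acid cycle genes was 0.01. Within the respiratory genes the differences were small but not all one way. Ndufa4 had 386 CPM in the KO library and 321 CPM in the WT library, the reverse of its order in macrophages. Ndufv3, of the NADH-binding module, had 185 CPM in the KO library and 219 CPM in the WT library. Atp5b, the catalytic beta subunit, had 621 CPM in the KO library and 715 CPM in the WT library. Among CD8 T cells high in granzymes C to F (168 KO and 231 WT cells) the median was 0.04 rather than -0.04.

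**Figure D2:**
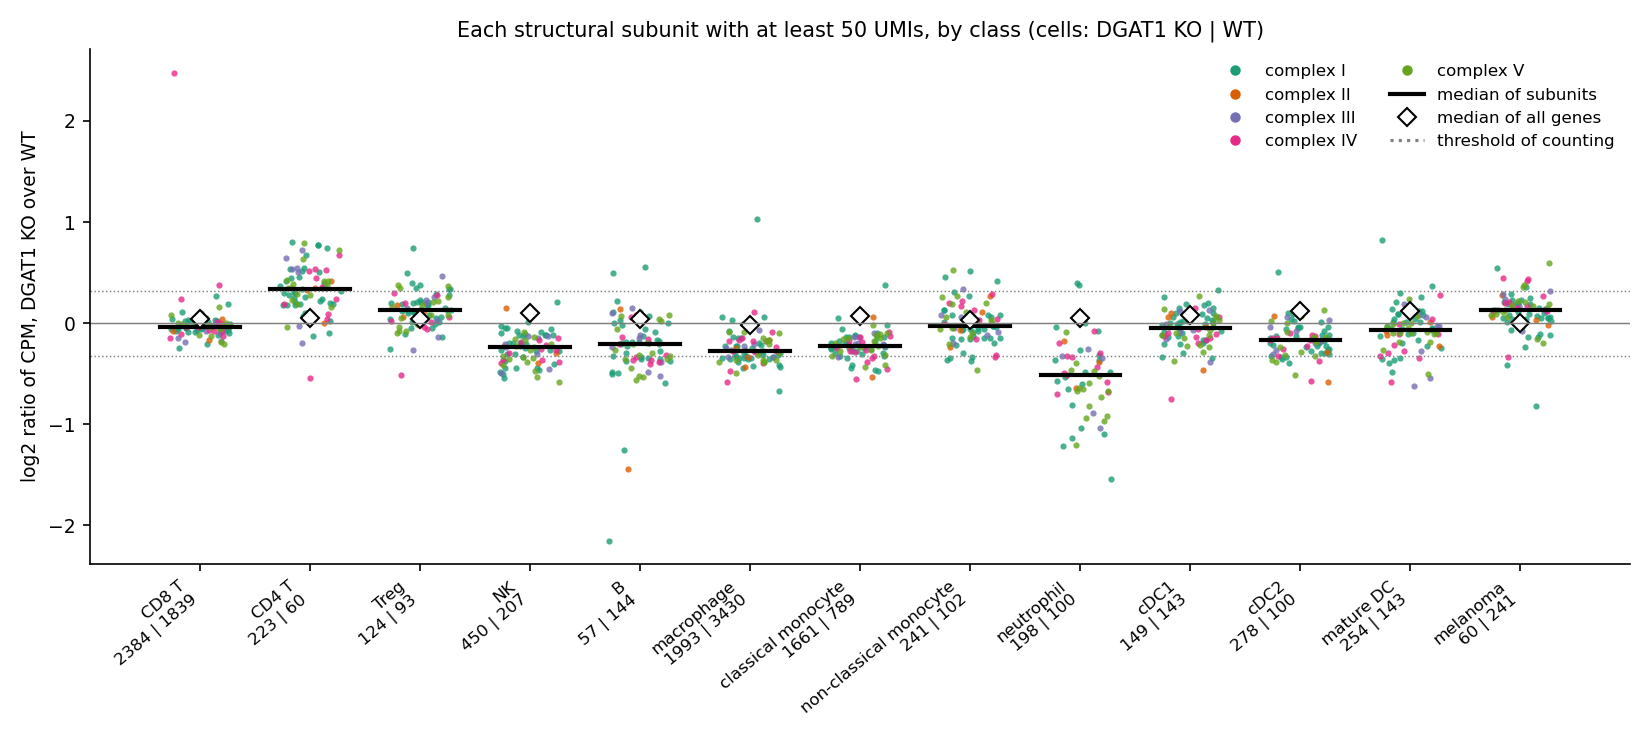
Log2 ratio of CPM, KO over WT, of each structural subunit with at least 50 UMIs (y axis), by class (x axis, with cell numbers), coloured by complex; bars are the median of the subunits, diamonds the median of all genes with the same minimum, dotted lines the threshold of counting, 0.32 either way. Subunit medians lie below the all-gene median in 10 classes and above it in CD4 T cells, Tregs and melanoma cells.

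Neutrophils (198 KO and 100 WT cells) had the lowest ratios. The median of the 56 subunits with enough UMIs was -0.52, beside 0.05 over 3361 genes. Counted as lower were 43 of the 56, against 22.2% of all genes, and 2 as higher, against 28.2%. Cox8a was the sole subunit with 500 UMIs, and its 584 CPM in the KO library and 618 CPM in the WT library differed within counting error. Ribosomal protein genes, whose median was -0.75, lay lower still in these cells. NK cells (450 KO and 207 WT) had a median of -0.24, beside 0.10 over 8579 genes. In NK cells 26 of 78 subunits were counted as lower, against 12.9% of all genes, and none as higher, against 26.1%. At the 500 UMI minimum 17 of 55 were lower there, against 11.1%, and 0 higher, against 23.2%. NK cells had 249 CPM of Atp5b in the KO library and 374 CPM in the WT library, the lowest ratio of a well-counted subunit there. B cells (57 KO and 144 WT) had a median of -0.21, beside 0.04, with 29 of 76 lower against 20.3% of all genes and 2 higher against 26.4%.

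Dendritic cells were split. In cDC2 cells (278 KO and 100 WT) the median was -0.17, beside 0.12 over 8512 genes, with 13 of 79 subunits lower against 11.3% of all genes and 1 higher against 30.0%. In cDC1 cells (149 KO and 143 WT), specialists in cross-presentation, the median was -0.05, beside 0.08 over 8694 genes. The cDC1 median turned above 0 under 3 settings, to 0.036 without cycling cells, 0.073 with doubled gates and 0.085 at 5000 to 20000 UMIs. Of the cDC1 subunits, 6 of 78 were lower, against 12.6%, and 1 higher, against 23.8%. Mature Ccr7+ dendritic cells (254 KO and 143 WT) had a median of -0.06, beside 0.12 over 7899 genes, with 11 of 78 lower against 11.1% and 2 higher against 28.4%. That median was 0.0031 in cells with at least 5% ribosomal protein UMIs. The share of subunits counted as lower was thus below that of all genes in cDC1 cells and little above it in mature and cDC2 cells.

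CD4 T cells went the other way. The median of 78 subunits was 0.34, beside 0.05 over 8306 genes, in 223 KO and 60 WT cells. Counted as higher were 41 of the 78, against 31.3% of all genes, and Cox7a2l alone as lower, against 22.9%. Subunit c gene Atp5g1 had 338 CPM in KO CD4 T cells and 195 CPM in WT CD4 T cells. Cycling cells made up 63.7% of KO and 36.7% of WT CD4 T cells. The median CD4 T cell had 13262 UMIs in the KO library and 7776 in the WT library. The part of cycling and depth in the result was not tested. In cells without a cycling UMI the median was 0.12, and Atp5g1 had a log2 ratio of -0.02. Tregs (124 KO and 93 WT) had a median of 0.12, beside 0.04 over 7911 genes, with 11 of 78 higher against 21.8% of all genes and 1 lower against 15.8%. Without cycling cells the Treg median was -0.21. Non-classical monocytes (241 KO and 102 WT) had a median of -0.03, beside 0.03 over 6700 genes. Per cell they differed more, since the median cell gave 0.842% of its UMIs to the subunits in the KO library and 1.13% in the WT library, and a summed level weights cells by their UMIs.

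Melanoma cells that passed the sort (60 KO and 241 WT) are the one class in which the deletion itself lies. Their median was 0.13, beside 0.00 over 11794 genes, with 8 of 79 subunits higher against 17.9% of all genes and 3 lower against 18.3%. Atp5j, coupling factor 6 of complex V, had 1070.3 CPM in the KO library and 708 CPM in the WT library, a log2 ratio of 0.60 (95% interval 0.55 to 0.64). Cox4i1, the common isoform of complex IV subunit 4, had 1723 CPM in the KO library and 1271 CPM in the WT library. Ndufb11, an X-linked subunit of the complex I membrane arm, had 171 CPM in the KO library and 301 CPM in the WT library. Its log2 ratio of -0.82 (95% interval -0.91 to -0.72) was the lowest of any subunit there with 500 UMIs. These are leukocyte-sorted tumour cells and need not stand for the tumour.

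**Figure D3:**
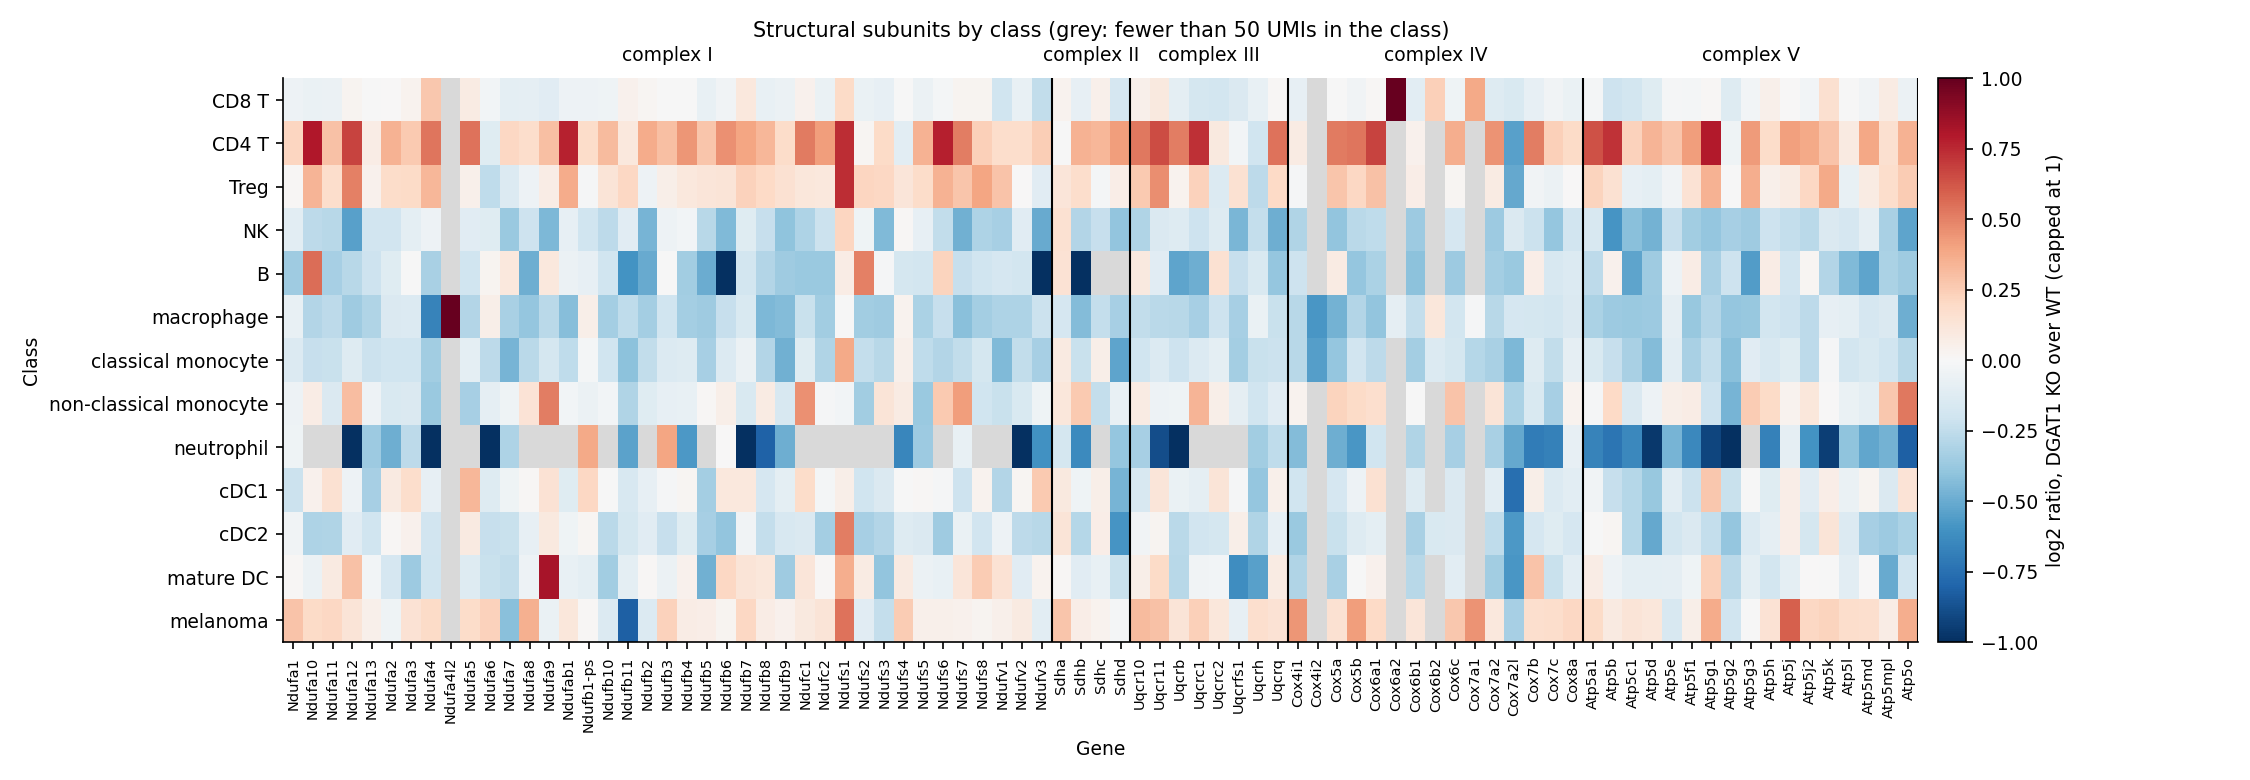
Log2 ratio of CPM, KO over WT (colour, capped at 1 either way), of each structural subunit with at least 50 UMIs in 1 or more classes (x axis, grouped by complex), in each of 13 classes (y axis); grey marks fewer than 50 UMIs. Cox7a2l is below 0 in every class, Ndufs1 is above 0 in 10 of 12, and Ndufa4 is above 0 in T cells and melanoma cells and below it in macrophages and neutrophils.

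The 13 subunits encoded in mitochondrial DNA followed the nuclear ones in some classes and not in others. In macrophages their median log2 ratio was 0.18 while that of the nuclear subunits was -0.27. The same split appeared in classical monocytes (0.19 for mitochondrial and -0.23 for nuclear genes), NK cells (0.09 and -0.24), cDC2 cells (0.24 and -0.17) and neutrophils (0.78 and -0.52). In CD8 T cells (0.08 and -0.04), mature dendritic cells (0.28 and -0.06) and non-classical monocytes (0.18 and -0.03) the nuclear median was near 0. Both medians lay above 0 in CD4 T cells (0.33 and 0.34) and melanoma cells (0.38 and 0.13), and both below it in B cells (-0.10 and -0.21) and cDC1 cells (-0.16 and -0.05). In Tregs the mitochondrial median was -0.24 and the nuclear one 0.12. For complex I of macrophages, nuclear UMIs per mitochondrially encoded UMI were 0.948 in the KO library and 1.29 in the WT library. For complex IV the same quotient was 0.224 in the KO library and 0.293 in the WT library. In CD8 T cells it was 1.48 in the KO library and 1.61 in the WT library for complex I. The whole mitochondrially encoded share of macrophage UMIs was 3.61% in the KO library and 3.22% in the WT library.

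Cytosolic ribosomal protein genes, also short, abundant and nuclear, moved with the nuclear subunits in several classes. Their median log2 ratio was -0.15 in macrophages, -0.26 in classical monocytes, -0.42 in NK cells, -0.36 in cDC2 cells and -0.10 in CD8 T cells. They took 10.9% of macrophage UMIs in the KO library and 12.1% in the WT library. Malat1, a nuclear RNA that is enriched in damaged or cytoplasm-poor cells, took 1.52% of macrophage UMIs in the KO library and 1.36% in the WT library. Macrophages with under 5% ribosomal protein UMIs made up 19.0% of KO and 10.6% of WT cells, and without them 17 of 83 subunits were counted as lower, against 17.5% of all genes. In macrophages with at most 2% of UMIs from Malat1, 20 of 83 were lower, against 17% of all genes. The part of RNA quality in the subunit ratios was not tested.

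**Figure D4:**
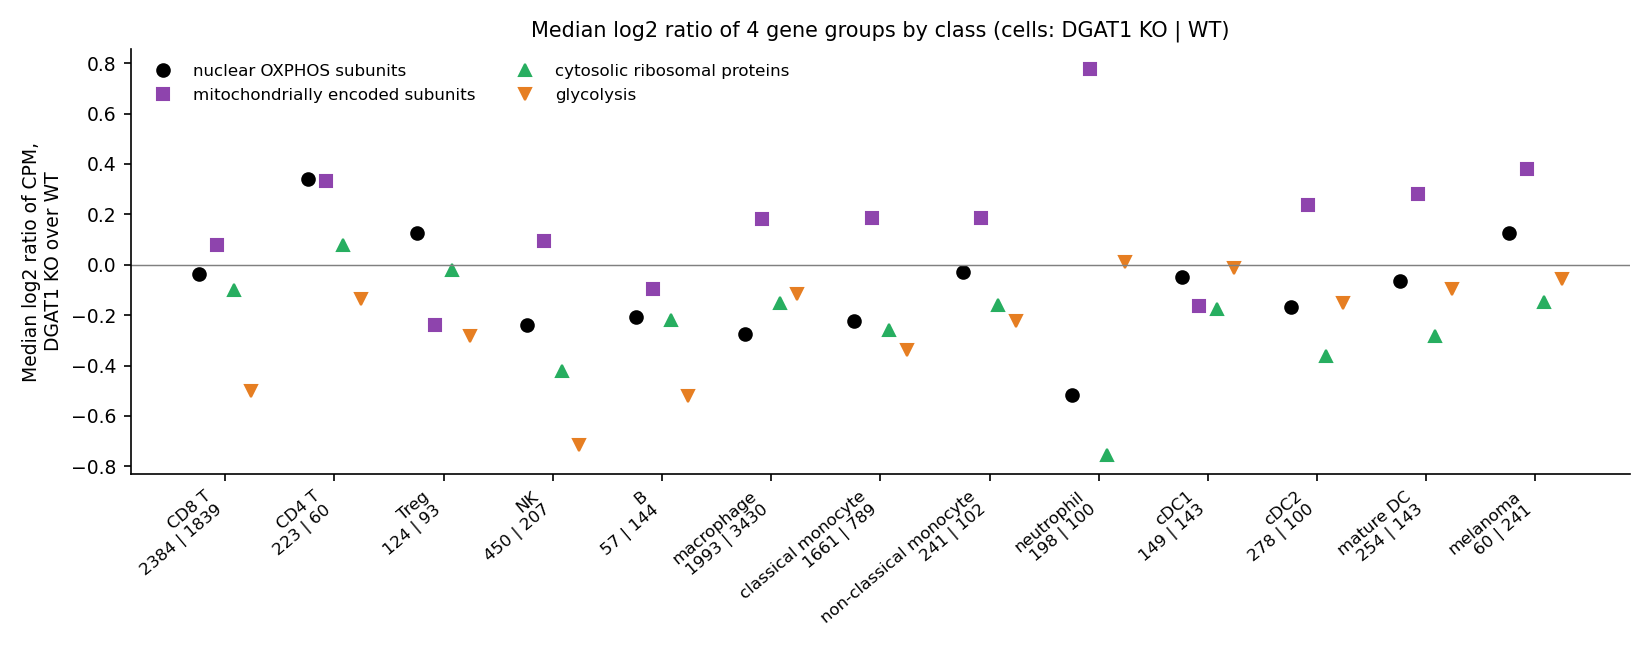
Median log2 ratio of CPM, KO over WT (y axis), of the nuclear subunits, the 13 mitochondrially encoded subunits, cytosolic ribosomal protein genes and 15 glycolysis genes, by class (x axis, with cell numbers). Nuclear and mitochondrial medians lie on opposite sides of 0 in macrophages (-0.27 and 0.18) and neutrophils (-0.52 and 0.78), and glycolysis lies lowest in NK cells (-0.72), B cells (-0.52) and CD8 T cells (-0.50).

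The wider pathway was read from gene lists. In macrophages, 40 of 78 mitochondrial ribosome genes were counted as lower and none as higher, with a median of -0.32, where 17.7% of all genes were lower and 17.0% higher. Of 36 assembly factors, which include Surf1 and Sco1 beside the 21 members, 10 were lower and none higher, against those same shares, with Sdhaf1 lowest at -0.54. The citric acid cycle had a median of -0.26 with 1 of 13 genes past the threshold, and electron carriers, Cycs with the coenzyme Q synthesis genes, had -0.29 with 5 of 12. Regulators such as Nrf1, Gabpa and Tfam had a median of 0.07. In CD8 T cells the mitochondrial ribosome median was -0.03, with 1 of 78 lower, against 13.6% of all genes, and the assembly factor median was -0.02. In classical monocytes 21 of 78 mitochondrial ribosome genes were lower and 3 higher, against 13.1% and 20.7% of all genes. In CD4 T cells 43 of 77 were higher, against 31.3% of all genes.

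One subunit stood apart from its complex. Cox7a2l, which in mouse and human joins complexes III and IV into supercomplexes, had a lower level in the KO library in 13 of 13 classes, and was counted as lower in 9. In cDC1 cells Cox7a2l had 145 CPM in the KO library and 245 CPM in the WT library, a log2 ratio of -0.76 (95% interval -0.93 to -0.58). It had 204 CPM in the KO library and 306 CPM in the WT library in mature dendritic cells, 163 CPM in KO and 243 CPM in WT cDC2 cells, and 186 CPM in KO and 272 CPM in WT CD4 T cells. In classical monocytes it had 95.04 CPM in the KO library and 130.0 CPM in the WT library. The ratio was nearest 0 in NK cells, with 204 CPM in the KO library and 226 CPM in the WT library, an interval that spans 0. Plasmacytoid dendritic cells, with 34 WT cells too few to be compared, read 183 CPM in the KO library and 295 CPM in the WT library. Cox7a2l lay below 0 even where its complex did not, as in CD4 T cells and melanoma cells.

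Set against all genes, this breadth was uncommon. Of 2282 genes with at least 50 UMIs in all 13 classes, 61 (2.67%) lay below 0 in every class, 25 of them ribosomal protein genes, and 2 were structural subunits. Counted as lower in 9 or more classes were 9 genes: Cox7a2l, the macrophage-rich Apoe, C1qa, C1qb, Ccl8, Ctsb, Ftl1 and Lgmn, and the melanocyte gene Dct. All 9 were lower in the free RNA of the KO library. C1qb had 765 CPM in KO free RNA and 2235 CPM in WT free RNA, and Cox7a2l had 176 CPM in KO free RNA and 194 CPM in WT free RNA. Free RNA was estimated at 2.16% of the UMIs of KO CD8 T cells and 2.70% of those of WT CD8 T cells. Over 17 alternative settings, among them free RNA subtracted, Cox7a2l lay below 0 in 211 of 211 class values. Some of these settings change only which subunits enter and leave its ratio as it was, and the others reuse largely the same cells. The count is therefore not separate support. Mouse strains are known to carry different Cox7a2l alleles, and the labels used here give no host strain. In melanoma cells, which come from the injected line, Cox7a2l had a log2 ratio of -0.34 (60 KO and 241 WT cells). Whether the hosts of the libraries, or the injected KO and WT cells, differed in this allele was not tested. Cox7a2l was picked out after these values were seen, and the cause was not tested.

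Atp5g2 was the other subunit below 0 in 13 of 13 classes, though in Tregs it was level, with 467 CPM in the KO library and 469 CPM in the WT library. Macrophages had 288 CPM of Atp5g2 in the KO library and 377 CPM in the WT library, and neutrophils 50.8 CPM in KO and 117 CPM in WT. In free RNA Atp5g2 had 389.6 CPM in the KO library and 575 CPM in the WT library. Under the alternatives Atp5g2 lay below 0 in 204 of 210 class values, and with free RNA subtracted it lay above 0 in 1 of 13 classes. This count likewise draws on the values by which Atp5g2 was picked. Atp5g1, Atp5g2 and Atp5g3 encode the same mature subunit c from separate genes. Whether any reads fit more than 1 of these genes was not examined. Ndufs1, the largest subunit of complex I, ran the opposite way, above 0 in 10 of 12 classes and counted as higher in 6. No share of all genes was taken for this breadth. Under the alternatives Ndufs1 lay above 0 in 153 and below 0 in 32 of 185 class values. With the 500 UMI minimum it lay above 0 in 3 of 4 classes. Melanoma cells had 117 CPM of Ndufs1 in the KO library and 80.3 CPM in the WT library, and classical monocytes 41.4 CPM in KO and 31.9 CPM in WT. In macrophages it was level, with 44.1 CPM in the KO library and 44.3 CPM in the WT library.

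**Figure D5:**
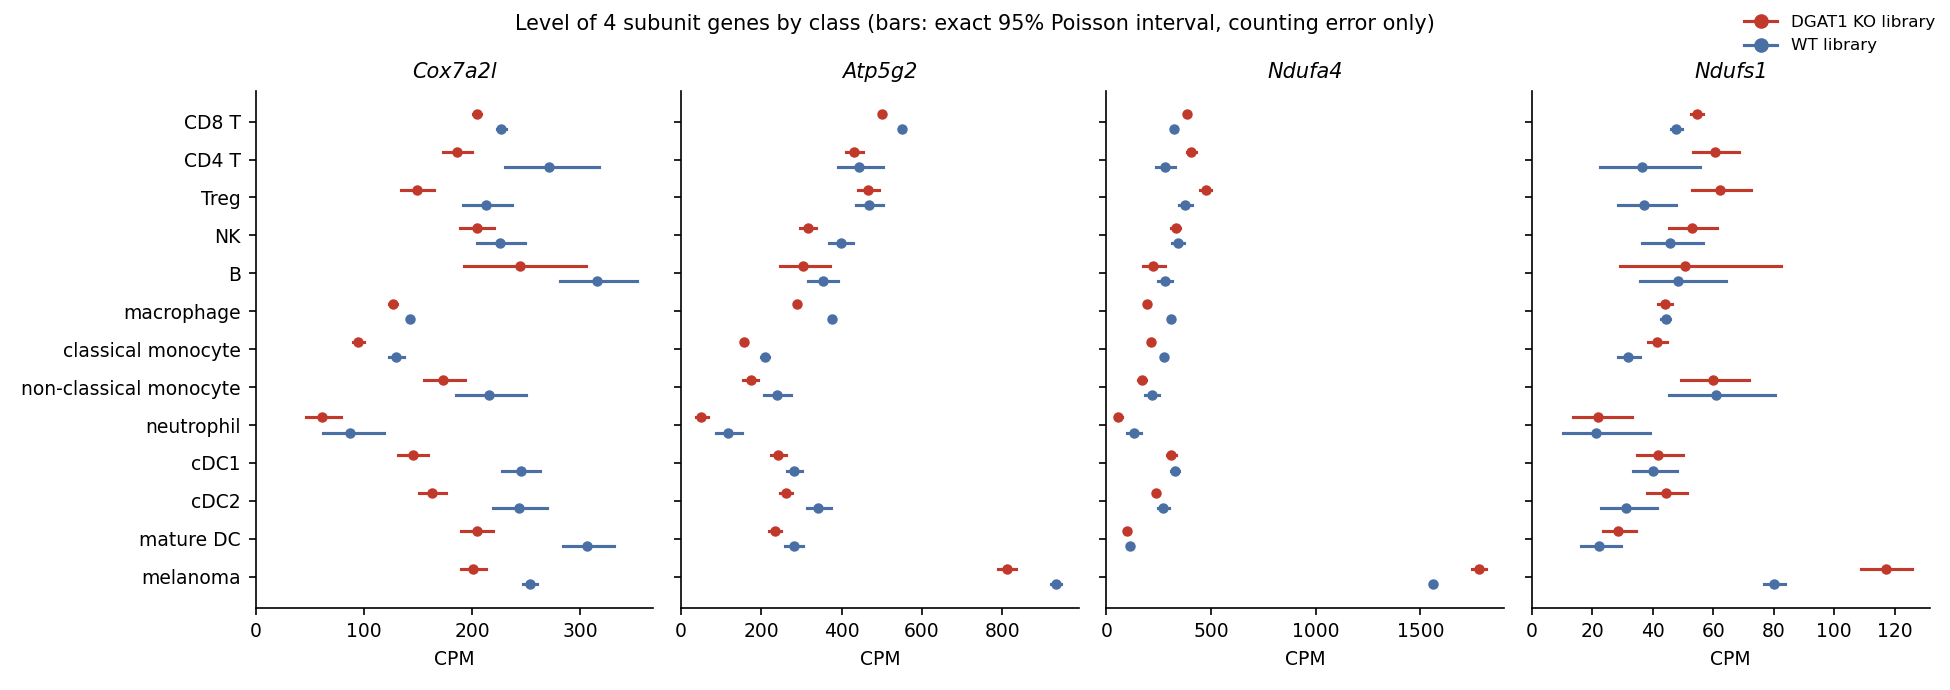
Level in CPM (x axis, from 0, each panel with its own scale) of Cox7a2l, Atp5g2, Ndufa4 and Ndufs1 in 13 classes (y axis), DGAT1 KO in red above WT in blue; bars are exact 95% Poisson intervals, which cover counting error only. Cox7a2l lies lower in the KO library in every class, with 145 CPM in KO and 245 CPM in WT cDC1 cells, and the KO level of Ndufa4 is lower in macrophages (195 CPM in KO and 310 CPM in WT) and higher in CD8 T cells (386 CPM in KO and 321 CPM in WT).

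Tissue-restricted isoforms marked classes more than they marked libraries. Cox6a2, the heart and muscle isoform of complex IV subunit 6a, had 1167 CPM in plasmacytoid dendritic cells of the KO library (124 cells) and 883 CPM in those of the WT library (34 cells). It had at most 12.3 CPM in any of the 13 compared classes. Its 44 UMIs in KO CD8 T cells came from 10 cells, and 7 UMIs were found in WT CD8 T cells. Cox4i2, the lung isoform of subunit 4, was chiefly a macrophage transcript, with 17.8 CPM in the KO library and 26.6 CPM in the WT library, a log2 ratio of -0.58 (95% interval -0.72 to -0.45). Classical monocytes had 4.83 CPM of Cox4i2 in the KO library and 7.09 CPM in the WT library.

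Ndufa4l2, a relative of Ndufa4 known as a hypoxia-inducible gene, was the 1 subunit counted as higher in KO macrophages. It had 3.26 CPM in the KO library (113 UMIs in 18 cells) and 1.60 CPM in the WT library (116 UMIs in 26 cells). So few cells carried it that the level rests on them. In melanoma cells Ndufa4l2 had 0 UMIs in the KO library and 41 in the WT library. Cox7a1, another muscle isoform, had 10.5 CPM in KO and 10.6 CPM in WT macrophages, and Cox6b2, the testis isoform of subunit 6b, reached 9.57 CPM in KO and 10.6 CPM in WT cDC2 cells. Cox8b had at most 4 UMIs in any class and library, and Cox7b2 and Cox8c had none in either library.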

How the data were processed

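The authors deposited unnormalized UMI counts for all barcodes of each library, made with Cell Ranger 7.2.0 per the file headers and with mm10 per the submitters' processing notes. Their counting settings and annotation release were not given in the sources used.

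Cells were called per library by UMI threshold plus a test against free RNA (10000 simulations, false discovery rate 0.01). Kept cells had at least 250 genes and at most 10% mitochondrial UMIs. Scrublet (scanpy 1.11.5) marked 356 KO (3.14%) and 163 WT (1.76%) doublets, which were removed.

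Cells were gated on marker UMIs per 10000 UMIs of a cell. Cells passing gates of 2 lineages were left out. UMIs were summed per class and library, scaled to CPM, and compared as log2 ratios for genes with at least 50 UMIs over both libraries. Intervals are exact Poisson (levels) and exact conditional binomial (ratios), checked on simulated data. No test between conditions was possible.

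Members and lists were chosen with earlier results of these data known. Named genes were the 2 lowest and 2 highest subunits per complex with at least 500 UMIs in CD8 T cells, macrophages and classical monocytes, the single extremes elsewhere, and tissue-restricted isoforms, of which a part is printed. Cox7a2l, Atp5g2, Ndufs1, Ndufa4 and Cox4i1 were also followed across classes after their values were seen.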

Additional observations from a re-analysis of the deposited data

Results flagged for a closer look

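The median log2 ratio of the structural subunits passed the threshold of counting in opposite directions in a pair of classes. It was 0.34 in CD4 T cells and -0.52 in neutrophils. The difference between these classes was not tested. In CD4 T cells, 41 of 78 subunits were counted as higher in the KO library, against 31.3% of all genes, and 1 as lower, against 22.9%. In neutrophils, 2 of 56 were counted as higher, against 28.2% of all genes, and 43 as lower, against 22.2%. Both classes are small, with 223 KO and 60 WT CD4 T cells and 198 KO and 100 WT neutrophils. Ribosomal protein genes had a median of 0.08 in CD4 T cells and -0.75 in neutrophils. The share of neutrophils with under 5% ribosomal protein UMIs was 94.4% in the KO library and 87.0% in the WT library.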

How the results depend on the processing

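With 1 library per group, all values describe these libraries, and tumour-to-tumour spread cannot be seen because 3 tumours per group were pooled. UMI counts limit the small classes: single-gene ratios there, as in B cells with 57 KO cells and CD4 T cells with 60 WT cells, have wide counting intervals. No paired analysis was possible because each group has 1 library. Settings chosen after seeing the data were the depth window, cycling cells alone, the ribosomal and Malat1 limits and the granzyme and Arg1 subsets. The cause of each shift below was not tested. Where a count below has no share of all genes beside it, no such share was taken for that setting. The higher UMI minimum is the exception, since shares of all genes were taken there.

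The medians kept their sign under all alternatives run in CD4 T cells (17), NK cells (17), B cells (15), macrophages (19), classical monocytes (17), neutrophils (14), cDC2 cells (17) and melanoma cells (14). In CD8 T cells 18 of 19 did, in Tregs 16 of 17, in non-classical monocytes 12 of 17, in cDC1 cells 14 of 17 and in mature dendritic cells 16 of 17. Of 1410 alternative values for 79 named gene results, 1225 stayed within the counting interval, 184 left it without a call turning round and 1 turned round. Some of these settings change only which subunits enter and leave the ratio of a single gene as it was. Their values could not leave the interval, so the tally is not a measure of how stable the named results are.

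At a fold of 1.5, 1 subunit was higher in CD8 T cells, against 3.14% of all genes, and 1 lower in macrophages, against 7.45%. In classical monocytes 0 were lower, against 4.20% of all genes, and 0 higher, against 5.70%. With mitochondrial and ribosomal genes left out of CPM, the median was -0.068 in CD8 T cells, -0.33 in NK cells, -0.25 in classical monocytes, -0.23 in cDC2 cells and -0.11 in mature dendritic cells. Centred on all genes, it was -0.080 in CD8 T cells, -0.34 in NK cells, -0.29 in classical monocytes (29 lower, 0 higher), -0.13 in cDC1 cells, -0.29 in cDC2 cells and -0.18 in mature dendritic cells.

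With at least 500 UMIs per subunit, 0 were higher in CD8 T cells and 0 in macrophages, each below the share of all genes in that class. With 1 UMI in each library, 1 was lower in CD8 T cells and 2 were higher in macrophages and 2 in classical monocytes. With free RNA subtracted, 1 was higher in CD8 T cells. As a mean over cells, the median was -0.068 in CD8 T cells (1 higher), 0.059 in Tregs, -0.30 in NK cells, -0.29 in non-classical monocytes, -0.13 in cDC1 cells, -0.28 in cDC2 cells and -0.21 in mature dendritic cells.

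Without cycling cells, the median was -0.12 in CD8 T cells. There 2 of 78 subunits were lower, against 11% of all genes, and 0 higher, against 17.7%. The median was 0.12 in CD4 T cells, -0.21 in Tregs and -0.16 in non-classical monocytes. In neutrophils it was -0.38, in cDC1 cells 0.036 and in cDC2 cells -0.25. Macrophages then had 12 of 83 subunits lower, against 14.1% of all genes, and 2 higher, against 19%. Atp5g1 in CD4 T cells was then at -0.015. In cycling cells alone, CD8 T cells had 1 subunit higher, against 13% of all genes. The median in cycling cells was -0.15 in NK cells, 0.32 in non-classical monocytes and -0.038 in cDC2 cells. With doubled gates, CD8 T cells had 1 higher, and the median was 0.0026 in Tregs, -0.20 in NK cells, 0.073 in cDC1 cells and -0.14 in mature dendritic cells.

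In cells with 5000 to 20000 UMIs, CD8 T cells had 1 subunit higher, against 9.77% of all genes. The median in that window was 0.14 in CD4 T cells, 0.0075 in Tregs, -0.16 in NK cells and -0.091 in B cells. It was -0.14 in macrophages, with 4 lower against 16% of all genes and 0 higher against 12.9%. In classical monocytes it was -0.18, with 0 higher against 21.9%. It was -0.15 in non-classical monocytes, 0.085 in cDC1 cells, -0.37 in cDC2 cells and -0.19 in mature dendritic cells. With at least 5000 UMIs, it was -0.20 in NK cells, -0.16 in B cells and -0.81 in neutrophils.

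With at least 5% ribosomal protein UMIs, the median was -0.16 in NK cells, 0.11 in non-classical monocytes, -0.11 in cDC2 cells and 0.0031 in mature dendritic cells. In classical monocytes it was -0.15, with 10 subunits lower against 12.8% of all genes. In macrophages 17 were lower, against 17.5% of all genes. With at most 2% Malat1 UMIs, the median was 0.23 in CD4 T cells, 0.077 in Tregs, -0.16 in NK cells and -0.17 in B cells. In classical monocytes it was -0.19, with 0 subunits higher against 20.8% of all genes. It was -0.065 in non-classical monocytes and -0.12 in cDC2 cells. With at most 5% mitochondrial UMIs, it was 0.065 in melanoma cells. In CD8 T cells high in granzymes C to F, it was 0.040, with 1 subunit higher against 13.4% of all genes. In Arg1-low macrophages 30 of 83 subunits were lower, against 17.6% of all genes, and 0 higher, against 19.4%. In Arg1-high macrophages the median was -0.19, with 4 of 82 lower against 12.6% of all genes and 1 higher against 12%.

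Alternatives that left fewer than 20 cells in a library, or fewer than 10 subunits, gave no value: cycling cells alone and the 500 UMI minimum in B cells and neutrophils, the ribosomal limit in neutrophils, and the depth window, doubled gates and cells without cycling UMIs in melanoma cells.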
